A study of Mus musculus with 8 samples.

Results

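The axon guidance families are the ligands and receptors through which growing axons and neighbouring cells attract or repel one another. Members were taken by gene symbol: semaphorins of classes 3 to 7, their receptors the plexins and neuropilins, the ephrins and their Eph receptors, Slit1 to Slit3 with Robo1 to Robo4, the netrins, and symbols that start with Unc5. The rule found 70 of 29234 genes in the count table, of which 49 were kept by the filter on low counts and could be tested. Among the 70 there were 35 ligands and 33 receptors. The other 2, *Unc50* and *Unc5cl*, match by symbol only, since the first encodes a Golgi protein and the other a membrane protein with a death domain, and neither is a netrin receptor.

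RNA was sequenced from wild type mouse colon organoids, which are epithelial structures grown from colon crypts in Matrigel, 4 libraries per condition. FS_CTR organoids received filtered, microbe-free fecal supernatant of healthy mice at 4 mg/mL, and FS_DSS organoids the same dose of supernatant from mice that had drunk dextran sulfate sodium, which damages the colonic epithelium and causes colitis. The labels give 5 days for both. Both conditions grew in medium with EGF, R-spondin-1, Noggin and Wnt-3a, so the Wnt pathway was stimulated in both, and no nerve cells were added to these organoids. The donors and recipients of the study were male C57BL/6N mice of several weeks of age. The supernatants came from pooled feces, so the 4 libraries of a condition need not represent separate donor mice. Whether they came from separate cultures or animals is not given in the sources used here, so *p* values measure only the spread between these libraries, which may be technical.

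Eph receptors and ephrins are both bound to the cell surface, so they signal between cells that touch, and the signal can run into the cell with the receptor as well as into the cell with the ephrin. A-type ephrins are held by a lipid anchor and mostly bind EphA receptors, whereas B-type ephrins span the membrane and mostly bind EphB receptors. In the intestine, *Ephb2* and *Ephb3* are Wnt targets of the crypt base, and repulsion between them and the ephrin-B1 and ephrin-B2 of more differentiated cells keeps cells in their places along the crypt. Semaphorins, some secreted and some membrane bound, signal through plexins, for most of class 3 with a neuropilin as co-receptor. Slits signal through Robo receptors, and netrins through Dcc, neogenin and the Unc5 receptors, some of which are dependence receptors that can start cell death when they have no ligand.

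Counts assigned to genes came to between 18968416 and 27035243 per library. Libraries 3 and 4 of FS_CTR stood apart: *mt-Co1* took 15.9% and 12.3% of their counts while the top gene of each of the other 6 took 1.34% to 3.19%, and their median correlation with the other libraries was 0.948 and 0.946, the lowest of the 8. Values without them are given beside the members for which leaving them out turned the sign or moved the unadjusted *p* across 0.05. Of 16 colon epithelium markers, 16 had a mean of at least 1 CPM (counts scaled to library size, here with TMM, which corrects for the makeup of a library), with sums of 1.91e+04 to 2.47e+04 CPM under FS_CTR and 2.12e+04 to 2.4e+04 CPM under FS_DSS. The summed levels of 9 neuron markers were 2.96 to 4.12 CPM and 3.62 to 5.06 CPM, those of 5 glia markers 1.61 to 2.8 and 1.14 to 1.95 CPM, those of 8 fibroblast and stroma markers 2.34 to 3.14 and 1.82 to 2.98 CPM, and those of 6 endothelial markers, with *Emcn* at 0, 2.27 to 3.68 and 1.67 to 2.85 CPM. Sums over 5 smooth muscle markers were 0.0651 to 4.03 and 0.164 to 1.07 CPM, and sums over 8 immune markers, led by *Csf1r*, were 7.52 to 15.8 and 7.88 to 17.8 CPM.

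Levels differed widely among the members. Per kb of the longest transcript, the highest mean over the 8 libraries was that of *Epha2*, a receptor for A-type ephrins, at 145 CPM per kb. *Plxnb2*, a plexin that binds class 4 semaphorins, followed at 120.3 CPM per kb, and the highest ligand was *Sema4g*, a membrane-bound semaphorin, at 73.15 CPM per kb. The ephrins *Efnb1* and *Efnb2* had 44.17 and 38.91 CPM per kb, *Sema7a*, a lipid-anchored semaphorin, had 37.94, and *Sema3c*, a secreted one, had 33.75. *Unc5b* was the highest netrin receptor of the rule, at 26.02 CPM per kb.

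**Figure D1:**
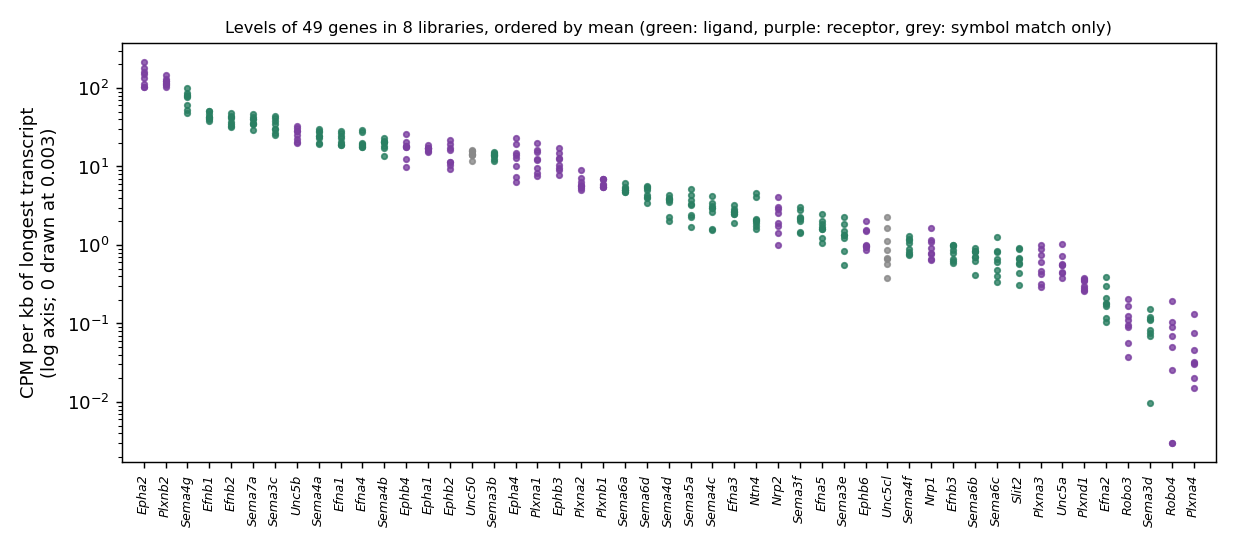
Levels of the 49 tested genes in each of the 8 libraries, in CPM per kb of the longest transcript on a log axis, ordered by mean from left to right, with ligands in green, receptors in purple and the pair that match by symbol only in grey. *Epha2* and *Plxnb2* lie at the top with means of 145 and 120.3 CPM per kb, and values of 0 are drawn at 0.003.

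The 21 members that were not kept had at most 26 counts in any library, and at most 0.84 CPM, in the case of *Ntn1*, which encodes netrin-1. *Epha6*, *Unc5c* and *Unc5d* had 0 counts in all 8 libraries, and 9 others had between 1 and 9 counts over all libraries: *Epha5*, *Epha8*, *Epha10*, *Ephb1*, *Ntn3*, *Plxnb3*, *Robo1*, *Sema5b* and *Slit3*. The rest were *Epha3*, *Epha7*, *Ntn5*, *Plxnc1*, *Robo2*, *Sema3a*, *Sema3g* and *Slit1*. So 1 of 3 Slits, 1 of 4 netrins and 2 of 4 Robo receptors could be tested, against 5 of 5 A-type ephrins, 3 of 3 B-type ephrins and 6 of 6 class 4 semaphorins.

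Whether supernatant of DSS-treated mice changed the organoids was asked by comparing FS_DSS with FS_CTR across all 12729 kept genes by edgeR's quasi-likelihood F test and Benjamini-Hochberg adjustment. A positive log2 fold change (log2FC) means a higher level under FS_DSS. At an adjusted *p* under 0.05 the test called 0 members, beside 0% of all genes in either direction. At an unadjusted *p* under 0.05, 11 of the 49 tested members (22.4%) were higher, beside 10.6% of all genes tested, and 4 (8.16%) were lower, beside 13.4%. With a log2FC of at least 0.58 in size as well, the thresholds of the study, 4 were higher (*Epha2*, *Epha4*, *Ntn4* and *Plxna1*), beside 2.56% of all genes, and 1 was lower (*Unc5cl*), beside 6.46%. *Unc5cl*, which matches by symbol only, is also among the 4 lower at the unadjusted *p*. At the unadjusted *p* alone, 7 were higher without FS_DSS library 4, 2 were lower without FS_CTR library 4 and 7 were lower without FS_DSS library 1, while library totals as the scaling gave 10 higher and 0 lower. With the fold change threshold, 2 were higher without FS_DSS library 4, and the lower count was 0 without FS_CTR library 1 and 2 without FS_CTR library 3 or FS_DSS library 1 or 3. The share of all genes called was not counted in these fits or with library totals. In 12 members every FS_DSS library lay above every FS_CTR library, beside 7.41% of all genes, and in 3 every one lay below, beside 7.58%. The log2FC was positive in 32 of 49 members and negative in 17, and its median was 0.11, against -0.021 over all genes. With library totals as the scaling both medians moved up, to 0.44 and 0.31, and the distance between them stayed at 0.13. Since these are whole cultures, fewer cells of a type and less RNA per cell cannot be told apart in any of the differences below.

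By role, 5 of 20 tested receptors (25%, beside 10.6% of all genes) were higher at an unadjusted *p* under 0.05 (*Epha2*, *Epha4*, *Plxna1*, *Plxnb2* and *Unc5b*) and 0 were lower, beside 13.4%. Of 27 tested ligands, 6 were higher (22.2%, beside 10.6%: *Efna5*, *Efnb2*, *Ntn4*, *Sema3c*, *Sema4d* and *Sema7a*) and 3 were lower (11.1%, beside 13.4%: *Efna1*, *Efna4* and *Sema4g*). Other fits gave calls at an adjusted *p* under 0.05. With the replicate number as a block, edgeR called 2 members higher, *Epha2* (adjusted *p* = 0.0405) and *Unc5b* (adjusted *p* = 0.0471), beside 0.534% of all genes, and 0 lower, beside 1.41%. At an unadjusted *p* the block gave 12 higher, beside 14.7% of all genes, and 2 lower, beside 16.2%, *Efna4* and *Sema4g*. DESeq2 called 7 of 48 higher (*Efnb2*, *Epha2*, *Epha4*, *Plxna1*, *Sema3c*, *Sema7a* and *Unc5b*), beside 5.18% of all genes, and 1 lower, *Sema4g*, beside 6.17%. These 7 genes were also the ones among the 15 that kept an unadjusted *p* under 0.05 in each of the 19 alternatives, and *Sema4g* kept it in all but the scaling by library totals. Fold changes also went with transcript length, with a Spearman correlation over all genes of 0.335 between log2FC and the length of the longest transcript. The median length was 5269 bases among the tested members and 4332 bases among all tested genes. After a trend on length was removed in each library, 10 members were higher at an unadjusted *p* under 0.05, beside 10.5% of all genes, and 5 were lower, beside 12%. Without FS_CTR libraries 3 and 4, 9 of 52 members were higher, beside 9.42% of all genes, and 6 were lower, beside 10.9%. One of these 6, *Robo2*, is among the 3 members that the filter on low counts keeps there and not in the main comparison.

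**Figure D2:**
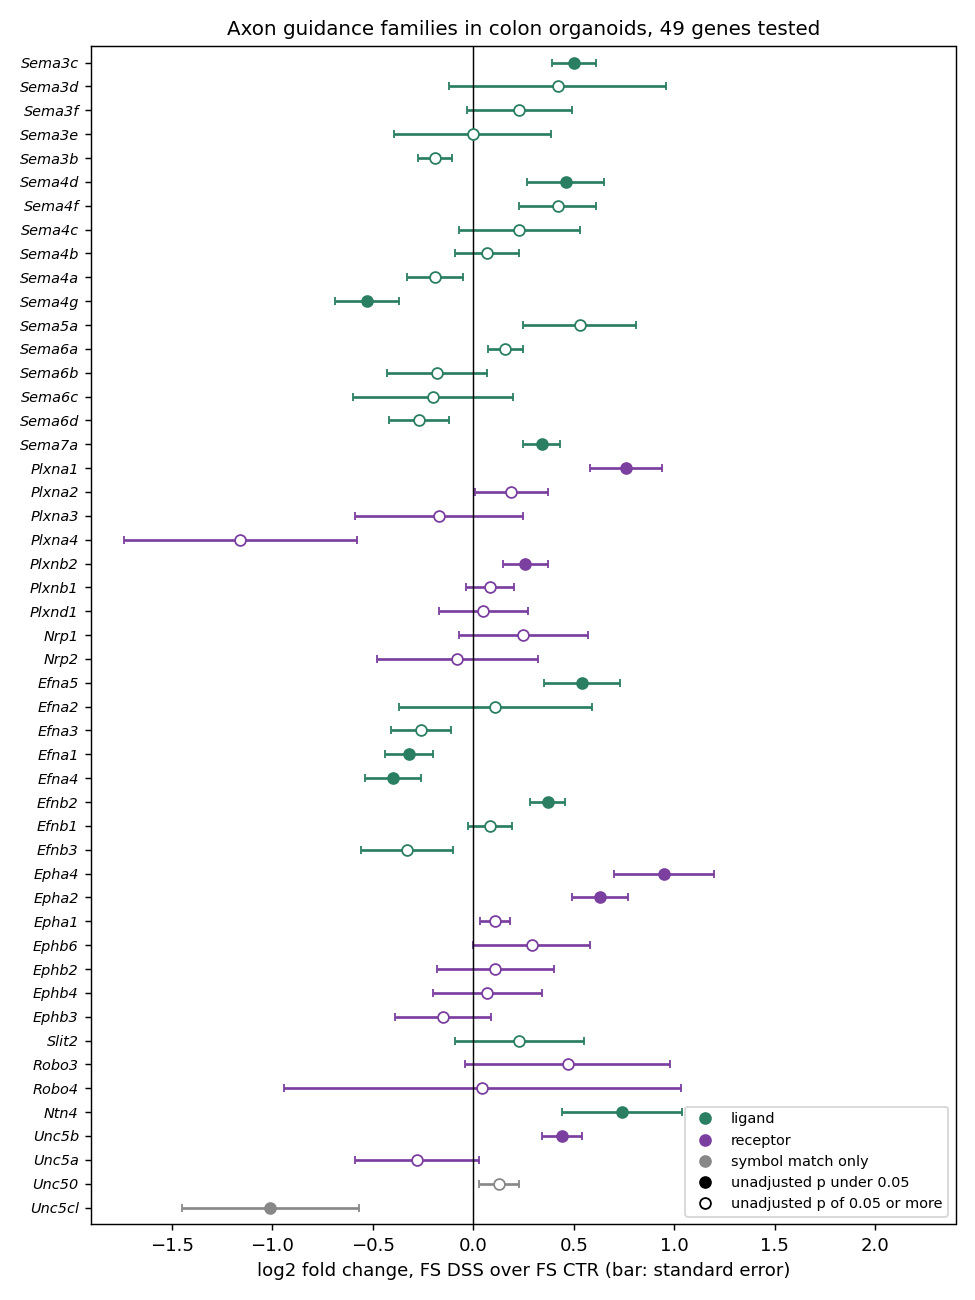
Log2 fold changes of the 49 tested genes, FS_DSS over FS_CTR, grouped by family, with bars of 1 standard error. Filled points have an unadjusted *p* under 0.05 (11 to the right of 0 and 4 to the left), and ligands are green, receptors purple and the pair that match by symbol only grey.

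Among the A-type Eph receptors and ephrins, the receptors *Epha2* and *Epha4* were higher under FS_DSS, while the ephrins *Efna1* and *Efna4* were lower, each at an unadjusted *p* under 0.05. *Epha2*, at chr4:141028540-141056695 (GRCm39), is known in epithelia for control of adhesion and migration and responds to ephrin-A1. It measured 409.2, 407.7, 440.3 and 530.4 CPM in FS_CTR libraries 1 to 4 and 595.3, 629.7, 709 and 831.5 CPM in FS_DSS libraries 1 to 4, so the highest FS_CTR library lay below the lowest FS_DSS library. The means were 446.9 ± 57.64 CPM and 691.4 ± 104.9 CPM (SD, n = 4 each), a log2FC of 0.63 with a standard error of 0.14. The adjusted *p* was 0.0791 in edgeR's test, and without FS_CTR libraries 3 and 4 the log2FC was 0.76. *Epha4*, which binds ephrins of both types, measured 83.29, 65.32, 47.02 and 40.28 CPM under FS_CTR and 95.25, 90.46, 123.8 and 148.8 CPM under FS_DSS. The FS_CTR libraries that stood apart were its lowest, and the log2FC of 0.95 (standard error 0.25, adjusted *p* = 0.0888) became 0.63 without them. *Epha1*, the other tested EphA receptor, had 50.72 to 56.03 CPM under FS_CTR and 56.3 to 61.34 CPM under FS_DSS, which do not overlap, with a log2FC of 0.11 and an adjusted *p* of 0.372.

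The ephrin-A genes *Efna1* (chr3:89179037-89188449), *Efna3* (chr3:89221203-89230272) and *Efna4* (chr3:89240695-89245373) are neighbours on the same strand. *Efna1*, a main ligand of EphA2, measured 43.2, 51.36, 59.12 and 54.99 CPM under FS_CTR and 48.03, 40.95, 39.18 and 39.27 CPM under FS_DSS, with an overlap at FS_CTR library 1. Its log2FC was -0.32 (standard error 0.12, adjusted *p* = 0.154). *Efna4* measured 31.78, 32.5, 47.1 and 44.51 CPM under FS_CTR and 28.68, 30.44, 29.37 and 29.61 CPM under FS_DSS, a log2FC of -0.40 (standard error 0.14, adjusted *p* = 0.143). The groups did not overlap, but FS_CTR libraries 1 and 2 lay only just above FS_DSS. *Efna3* was low, with 6.248, 6.835, 7.658 and 6.508 CPM under FS_CTR and 6.171, 4.597, 5.945 and 5.942 CPM under FS_DSS (log2FC -0.26, adjusted *p* = 0.316), again with no overlap. Without FS_CTR libraries 3 and 4 the log2FC was -0.17 for *Efna1* and -0.12 for *Efna4*, and with library totals as the scaling it was 0.05 and 0.00028. With the length trend removed it was -0.12 (unadjusted *p* = 0.296) and -0.15 (unadjusted *p* = 0.129). The unadjusted *p* of *Efna1* was also over 0.05 when either of these FS_CTR libraries, or FS_DSS library 2, 3 or 4, was left out alone, at a log2FC of -0.25 to -0.30, and that of *Efna4* without FS_CTR library 3 (-0.29) or 4 (-0.32). *Efna5*, on chromosome 17, went the other way, with 8.47, 8.38, 5.6 and 6.44 CPM under FS_CTR and 8.79, 10.57, 9.71 and 13.18 CPM under FS_DSS (log2FC 0.54, standard error 0.19, adjusted *p* = 0.139). It was 0.33 without the FS_CTR libraries that stood apart and 0.42 without FS_DSS library 4, each with an unadjusted *p* over 0.05.

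*Epha2* was also set, within each library, against the A-type ephrins that were lower at an unadjusted *p* under 0.05. This was the ratio of its CPM per kb to the summed CPM per kb of *Efna1* and *Efna4*. No scaling between libraries can move this value, but the length trend was not removed from it. The sum leaves out *Efna2*, *Efna3* and *Efna5*, with log2FC of 0.11, -0.26 and 0.54. Their mean levels were low, at 0.206, 2.622 and 1.692 CPM per kb, against 22.48 for *Efna1* and 20.9 for *Efna4*. A ratio with these ephrins included was not computed. This ratio was 2.6, 2.34, 1.97 and 2.53 under FS_CTR and 3.75, 4.21, 4.93 and 5.75 under FS_DSS, with means of 2.36 ± 0.284 and 4.66 ± 0.875 (SD, n = 4 each). It was highest in FS_DSS library 4 and lowest in FS_CTR library 3, with no overlap. The ratio was chosen after the values of these genes were seen and is given with no test. Such a ratio does not say which of its genes moved.

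**Figure D3:**
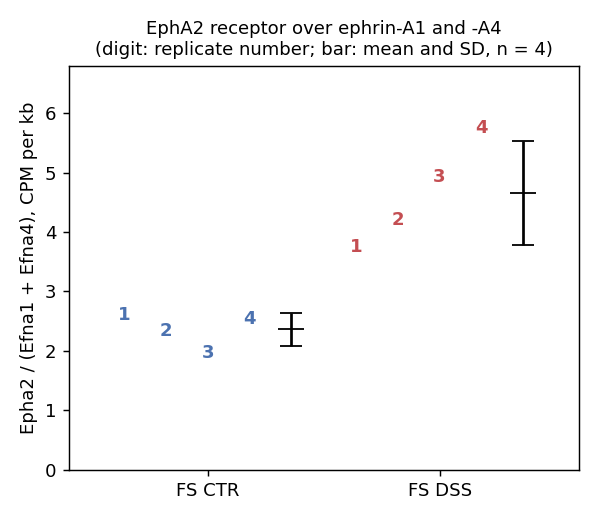
Ratio of *Epha2* to the sum of *Efna1* and *Efna4*, each in CPM per kb of the longest transcript, in the 4 FS_CTR libraries (blue) and the 4 FS_DSS libraries (red), with digits for the replicate number and bars for mean and SD. The FS_CTR ratios lie between 1.97 and 2.6 and the FS_DSS ratios between 3.75 and 5.75.

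In the B-type system a ligand, not a receptor, stood out. *Efnb2*, whose product repels EphB2 and EphB3 cells and binds EphB4 with high affinity, measured 183.1, 165, 158.5 and 172.2 CPM under FS_CTR and 212.7, 204.5, 219.7 and 243.3 CPM under FS_DSS. All 4 FS_DSS libraries were above all 4 FS_CTR libraries, with means of 169.7 ± 10.53 and 220 ± 16.69 CPM (SD, n = 4 each), and the log2FC was 0.37 (standard error 0.089, adjusted *p* = 0.0832). *Efnb1*, the other ephrin of the crypt boundary, measured 126.5, 133.9, 141.5 and 166.7 CPM under FS_CTR and 167.7, 155.7, 136.9 and 142.1 CPM under FS_DSS, which overlap (log2FC 0.08, adjusted *p* = 0.657). *Efnb3* stayed between 2.49 and 3.15 CPM in both group means (log2FC -0.33, adjusted *p* = 0.387).

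Of the 4 tested EphB receptors, 0 had an unadjusted *p* under 0.05, and *Ephb2*, *Ephb3* and *Ephb4* had wide spreads within FS_CTR. *Ephb2* measured 212.7, 178.7, 124.1 and 100.7 CPM under FS_CTR and 236.4, 187.8, 126.5 and 113.6 CPM under FS_DSS (log2FC 0.11, adjusted *p* = 0.841). *Ephb3* measured 80.82, 61.41, 49.57 and 42.3 CPM and 70.33, 58.71, 45.35 and 37.49 CPM (log2FC -0.15, adjusted *p* = 0.726). In both genes and both conditions, libraries 1 and 2 lay above libraries 3 and 4. Against the FS_CTR library of the same number, *Ephb2* was higher in 4 of 4 FS_DSS libraries and *Ephb3* lower in 4 of 4, and with the replicate block the unadjusted *p* was 0.157 and 0.0684, or 0.0489 for *Ephb3* with length offsets as well. Without FS_CTR libraries 3 and 4 the log2FC was -0.24 and -0.43. *Ephb4*, the EphB receptor with the highest level per kb, measured 113.6, 91.02, 55.09 and 43.15 CPM under FS_CTR, a wide spread, and 79.89, 79.27, 78.36 and 81.32 CPM under FS_DSS, a narrow one. Its log2FC was 0.07 (adjusted *p* = 0.891), and -0.36 without FS_CTR libraries 3 and 4. *Ephb6*, whose kinase domain is inactive, had 6.093 to 10.97 CPM under FS_CTR and 6.66 to 14.02 CPM under FS_DSS.

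The order of the replicate numbers was described over all members for this reason. Libraries 1 and 2 lay above libraries 3 and 4 in both conditions for 9 of 49 members (18.4%, beside 13.8% of all genes): *Ephb2*, *Ephb3*, *Ephb6*, *Nrp2*, *Plxna3*, *Sema4c*, *Sema6a*, *Slit2* and *Unc5a*. The reverse held for 4 (8.16%, beside 12.4%): *Epha2*, *Robo3*, *Sema3f* and *Sema6c*. *Lgr5*, a Wnt target and marker of crypt base stem cells, measured 40.25, 22.54, 16.22 and 13.54 CPM under FS_CTR and 16.23, 7.191, 10.56 and 2.131 CPM under FS_DSS, so its libraries 1 and 2 were above 3 and 4 under FS_CTR but not throughout FS_DSS. *Ephb2*, in contrast, had like levels in libraries of the same number in both conditions. The part of crypt base content in these differences was not tested.

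**Figure D4:**
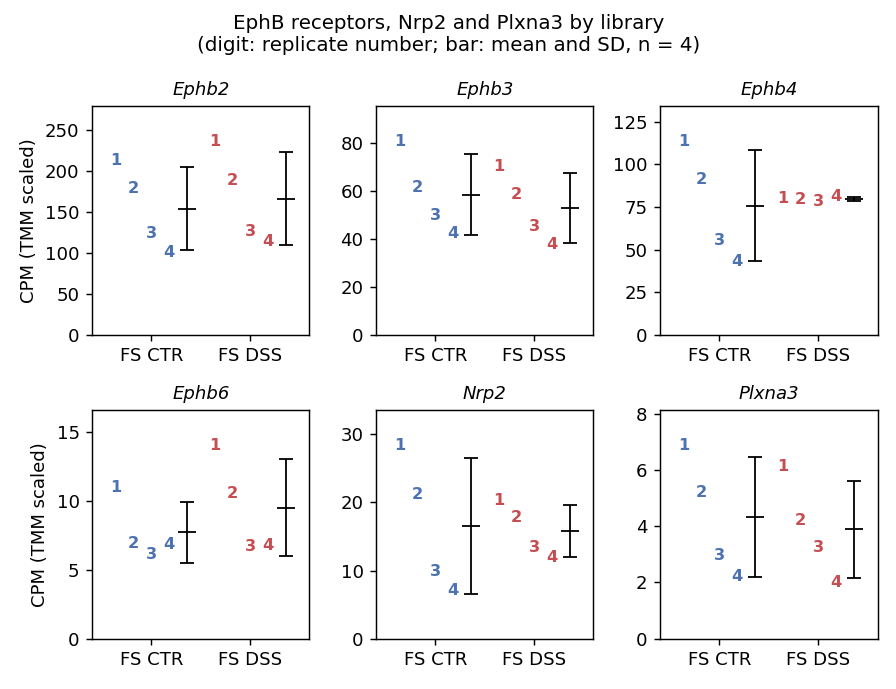
Levels in CPM of *Ephb2*, *Ephb3*, *Ephb4*, *Ephb6*, *Nrp2* and *Plxna3* in the FS_CTR (blue) and FS_DSS (red) libraries, with digits for the replicate number and bars for mean and SD of 4. *Ephb2* goes from 212.7 to 100.7 CPM under FS_CTR and from 236.4 to 113.6 CPM under FS_DSS with libraries 1 and 2 on top in both, while *Ephb4* spreads from 43.15 to 113.6 CPM under FS_CTR and lies at 78.36 to 81.32 CPM under FS_DSS.

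Among the semaphorins, *Sema3c*, *Sema7a* and *Sema4d* were higher under FS_DSS and *Sema4g* was lower. *Sema3c*, at chr5:17779219-17935648, encodes a secreted semaphorin that acts through neuropilins and plexins. It measured 175.9, 157.8, 150.7 and 178.9 CPM under FS_CTR and 223.4, 204.7, 247.3 and 263.1 CPM under FS_DSS, which do not overlap. The means were 165.8 ± 13.74 and 234.6 ± 25.77 CPM (SD, n = 4 each), and the log2FC was 0.50 (standard error 0.11, adjusted *p* = 0.0784). The other tested class 3 semaphorins, *Sema3b*, *Sema3d*, *Sema3e* and *Sema3f*, had log2FC between -0.19 and 0.42 and were at or below 61.28 CPM in either group mean. Among them *Sema3e* had 5.678 and 3.845 CPM in FS_CTR libraries 1 and 2, 12.85 and 15.42 CPM in FS_CTR libraries 3 and 4, and 8.414 to 10.4 CPM under FS_DSS. Its log2FC was near 0 with all libraries and 0.97 without FS_CTR libraries 3 and 4, with an unadjusted *p* of 0.00183. *Sema7a*, which binds plexin C1 and beta-1 integrins, measured 117.3, 115.9, 96.67 and 114.7 CPM under FS_CTR and 134.8, 153.9, 131.6 and 142.4 CPM under FS_DSS (log2FC 0.34, standard error 0.093, adjusted *p* = 0.0958). Its receptor gene *Plxnc1* had at most 6 counts in any library.

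*Sema4g*, at chr19:44977540-44991836, is a membrane-bound class 4 semaphorin. It measured 354.5, 393.8, 458.1 and 366.7 CPM under FS_CTR and 354.1, 279.6, 236.7 and 220.2 CPM under FS_DSS. The groups did not overlap, although FS_DSS library 1 lay only just below FS_CTR library 1. The means were 393.3 ± 46.22 and 272.7 ± 59.8 CPM (SD, n = 4 each), with a log2FC of -0.53 (standard error 0.16, adjusted *p* = 0.110), and with library totals as the scaling it was -0.18 with an unadjusted *p* of 0.477. Its exons share 1181 bases with *Mrpl43*, a mitochondrial ribosomal protein gene on the opposite strand at 52.5 CPM (log2FC -0.26, adjusted *p* = 0.287), and the strand setting of the counting is not given, so reads of the shared bases could belong to either. *Sema4d*, also called CD100, a ligand of plexin B1, measured 32.67, 30.53, 20.09 and 17.64 CPM under FS_CTR and 33.61, 35.04, 33.53 and 37.59 CPM under FS_DSS. FS_CTR libraries 1 and 2 were near the FS_DSS level and libraries 3 and 4 well below it. The log2FC was 0.46 (standard error 0.19, adjusted *p* = 0.187) and 0.15 without these FS_CTR libraries. Its unadjusted *p* was over 0.05 when any of FS_CTR libraries 3 and 4 or the 4 FS_DSS libraries was left out, at 0.33 to 0.48, and its exons share 1766 bases with *Secisbp2* on the opposite strand, a selenoprotein synthesis gene at 25.9 CPM. With the length trend removed its log2FC was 0.32 (unadjusted *p* = 0.0862). *Sema4a*, *Sema4b*, *Sema4c* and *Sema4f* had log2FC between -0.19 and 0.42, and that of *Sema4c*, 0.23, was -0.23 without FS_CTR libraries 3 and 4.

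*Sema5a*, the one tested class 5 semaphorin, measured 46.34, 24.87, 18.53 and 25.9 CPM under FS_CTR and 56.58, 35.76, 35.28 and 40.27 CPM under FS_DSS. Library 1 was the highest of both conditions, so the groups overlap, but each FS_DSS library lay above the FS_CTR library of the same number. The log2FC was 0.53 (standard error 0.28, adjusted *p* = 0.268), it was 0.86 without FS_CTR library 1 (adjusted *p* = 0.0403) and 0.35 without FS_DSS library 1, it was 0.24 without FS_CTR libraries 3 and 4, and the adjusted *p* was 0.0567 once replicate number was a block. *Sema6a*, the highest class 6 semaphorin per kb, measured 36.22, 36.11, 34.09 and 34.17 CPM under FS_CTR and 44.41, 38.78, 36.42 and 37.75 CPM under FS_DSS, with no overlap but a log2FC of 0.16 only (adjusted *p* = 0.288). *Sema6b*, *Sema6c* and *Sema6d* had log2FC between -0.27 and -0.18, and that of *Sema6c*, -0.20, was 0.61 without FS_CTR libraries 3 and 4.

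On the receptor side of the semaphorins, *Plxna1*, which pairs with neuropilins to receive class 3 semaphorins, measured 169.4, 133.2, 115.6 and 105.2 CPM under FS_CTR and 223.7, 173.6, 213.7 and 276.3 CPM under FS_DSS. Each FS_DSS library was above each FS_CTR library, by a narrow step between FS_CTR library 1 and FS_DSS library 2. The log2FC was 0.76 (standard error 0.18, adjusted *p* = 0.0832), and 0.55 both without FS_CTR libraries 3 and 4 and with the length trend removed. The longest *Plxna1* transcript has 13851 bases. *Plxnb2* measured 763.1, 691.7, 722.9 and 772.8 CPM under FS_CTR and 994.1, 815.3, 825.3 and 886.9 CPM under FS_DSS, with no overlap (log2FC 0.26, standard error 0.11, adjusted *p* = 0.187). With the length trend removed it was 0.14, and without FS_CTR libraries 3 and 4 it was 0.28 with an unadjusted *p* of 0.0525. Its unadjusted *p* was also over 0.05 without FS_CTR library 2 or 3 or without FS_DSS library 1, 3 or 4, at a log2FC of 0.19 to 0.29. *Plxna2*, *Plxnb1* and *Plxnd1* had log2FC of 0.19, 0.08 and 0.05, with *Plxnd1* at 2.601, 1.939, 1.894 and 2.668 CPM under FS_CTR and 2.515, 2.036, 2.144 and 2.745 CPM under FS_DSS. *Plxna4* had under 1 CPM in either group mean (log2FC -1.16, adjusted *p* = 0.253), and its log2FC was -0.12 without FS_CTR libraries 3 and 4.

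Per kb the neuropilins were low, with means of 2.33 CPM per kb for *Nrp2* and 0.962 for *Nrp1* against 33.75 for *Sema3c*. *Nrp2* measured 28.42, 21.1, 9.799 and 7.028 CPM under FS_CTR and 20.22, 17.8, 13.42 and 11.95 CPM under FS_DSS, with libraries 1 and 2 on top in both (log2FC -0.08, adjusted *p* = 0.917), and its log2FC was -0.64 without FS_CTR libraries 3 and 4. *Nrp1* had 3.319 to 6.058 CPM under FS_CTR and 3.415 to 8.622 CPM under FS_DSS. The ratio of *Sema3c* to the sum of both neuropilins, in CPM per kb, was 5.64, 7.24, 11.5 and 15.7 under FS_CTR and 10.3, 10.7, 13.7 and 13.1 under FS_DSS, which overlap.

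Netrin receptors and netrins were represented by few genes. *Unc5b*, a dependence receptor for netrin-1, at chr10:60598372-60667396, measured 133.8, 120.3, 117.3 and 150.3 CPM under FS_CTR and 182.8, 166.2, 167.5 and 191.2 CPM under FS_DSS. The groups did not overlap, the means were 130.4 ± 15.08 and 176.9 ± 12.14 CPM (SD, n = 4 each), and the log2FC was 0.44 (standard error 0.10, adjusted *p* = 0.0805). *Ntn4*, a netrin of basement membranes, measured 6.629, 7.919, 8.069 and 6.052 CPM under FS_CTR and 7.647, 7.257, 15.46 and 17.41 CPM under FS_DSS, so FS_DSS libraries 1 and 2 lay within the FS_CTR range and 3 and 4 far above it. Its log2FC of 0.74 (standard error 0.30, adjusted *p* = 0.181) was 0.59 without FS_DSS library 3 and 0.50 without FS_DSS library 4, and its unadjusted *p* was over 0.05 there, without FS_CTR library 1, 2 or 4 (0.67 to 0.79) and without FS_CTR libraries 3 and 4 together (0.72). *Dcc*, the main netrin receptor of axons, had 0 counts in all 8 libraries, and *Neo1*, which encodes neogenin, had 65.5 ± 4.48 and 67.1 ± 2.48 CPM (SD, n = 4 each), with a log2FC of 0.03 (adjusted *p* = 0.805). *Unc5a* had group means of 2.9 and 2.42 CPM, and its log2FC of -0.28 was -0.70 without FS_CTR libraries 3 and 4, with an unadjusted *p* of 0.0183.

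Slits and Robo receptors were low. *Slit2* measured 9.008, 6.703, 3.129 and 4.36 CPM under FS_CTR and 9.123, 6.797, 5.685 and 5.974 CPM under FS_DSS (log2FC 0.23, adjusted *p* = 0.668). Its log2FC was -0.19 without FS_CTR libraries 3 and 4 and 0.52 without FS_CTR library 1. *Robo3* measured 0.222, 0.3286, 0.7411 and 0.9762 CPM and 0.5366, 0.5582, 0.6498 and 1.195 CPM (log2FC 0.47, adjusted *p* = 0.587), and it was 1.41 without FS_CTR libraries 3 and 4. *Robo4* was at 0 in FS_CTR library 3 and FS_DSS library 4. *Unc5cl*, which matches by symbol only, measured 11.16, 8.018, 3.294 and 4.165 CPM under FS_CTR and 3.186, 2.791, 5.523 and 1.841 CPM under FS_DSS, with an overlap (log2FC -1.01, standard error 0.44, adjusted *p* = 0.205). Its log2FC was -1.52 without FS_CTR libraries 3 and 4 and -0.65 without FS_CTR library 1, and its unadjusted *p* was over 0.05 without FS_CTR library 1 or 2 or FS_DSS library 1, 2 or 4 (-0.65 to -0.99). *Unc50* had a log2FC of 0.13.

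**Figure D5:**
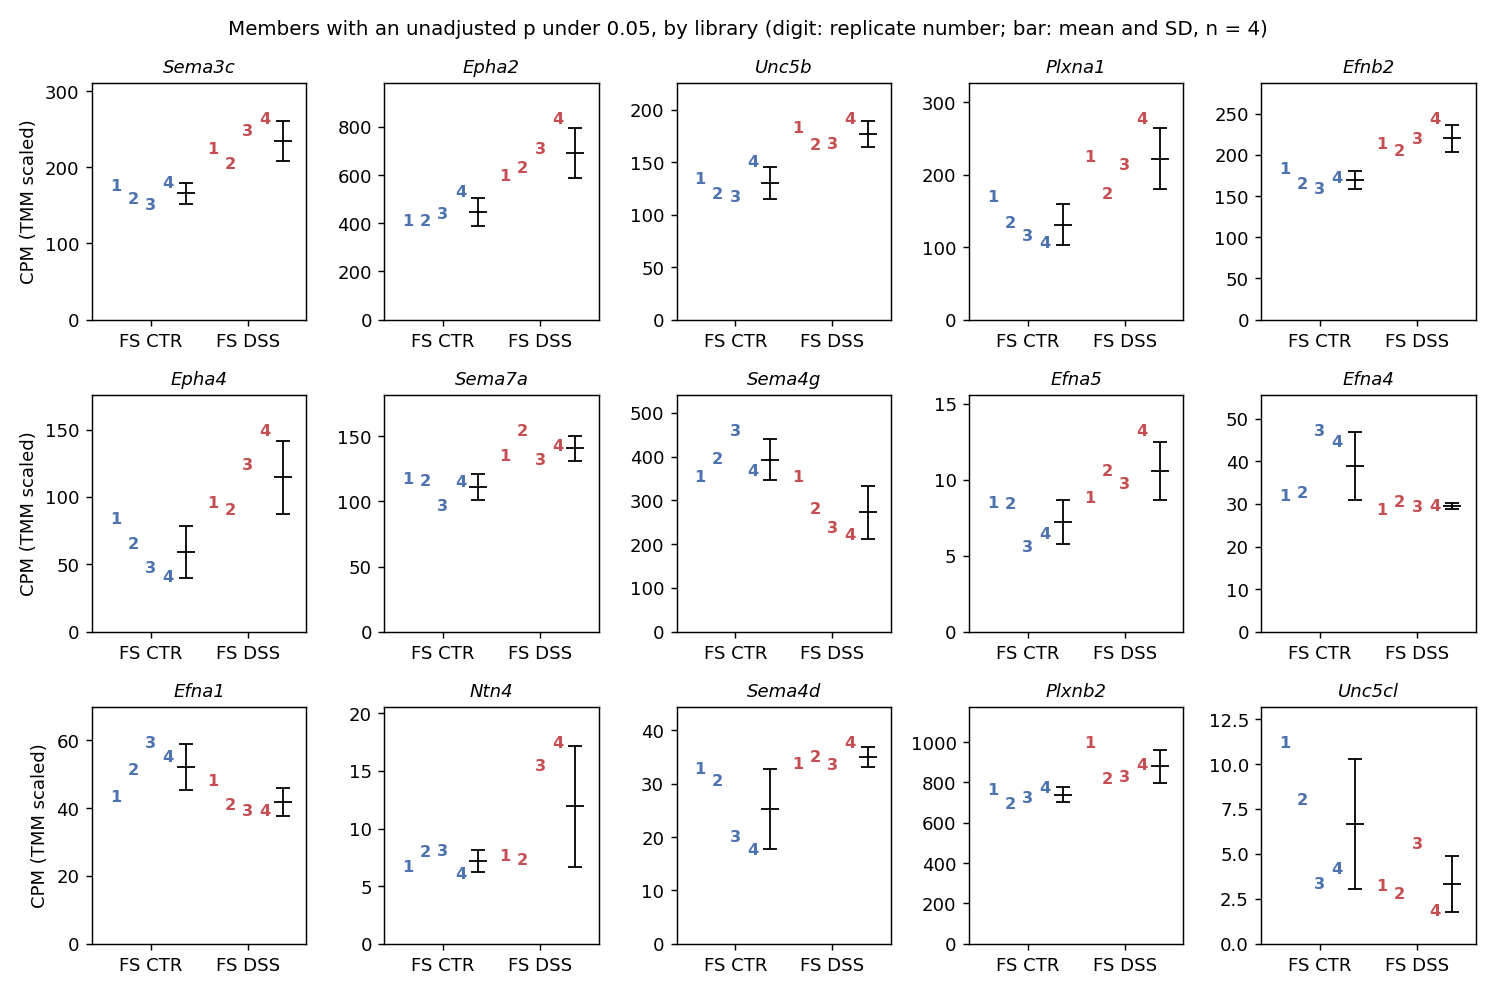
Levels in CPM of the 15 members with an unadjusted *p* under 0.05 in the 4 FS_CTR libraries (blue) and the 4 FS_DSS libraries (red), with digits for the replicate number and bars for mean and SD. *Efna1*, *Ntn4* and *Unc5cl* overlap between conditions, and the other genes shown do not. In *Sema4d* and *Efna4* FS_CTR libraries 1 and 2 lie near the FS_DSS libraries while 3 and 4 lie apart.

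The bases before the start of 4 of these genes are shown because they include both members that passed the adjusted threshold with the replicate block (*Epha2* and *Unc5b*), the ligand with the smallest *p* (*Sema3c*) and the one ligand that DESeq2 called lower (*Sema4g*). Each is the 200 bases upstream of the annotated gene start, 5′ to 3′ on the strand of the gene, at chr4:141028340-141028539 (plus), chr10:60667397-60667596 (minus), chr5:17779019-17779218 (plus) and chr19:44977340-44977539 (plus) of GRCm39. Capitals mark matches, on either strand, to 3 motifs of factors active in gut epithelium: TGANTCA of AP-1, CTTTGAT of TCF/LEF, which act at the end of the Wnt pathway, and CATTCC of TEAD, the partner of YAP. The end of the TCF/LEF motif can overlap the start of the AP-1 motif.
Epha2: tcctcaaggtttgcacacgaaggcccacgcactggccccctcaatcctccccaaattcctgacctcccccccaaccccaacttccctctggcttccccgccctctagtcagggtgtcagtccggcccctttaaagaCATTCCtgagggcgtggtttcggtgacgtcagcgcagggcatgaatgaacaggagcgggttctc
Unc5b: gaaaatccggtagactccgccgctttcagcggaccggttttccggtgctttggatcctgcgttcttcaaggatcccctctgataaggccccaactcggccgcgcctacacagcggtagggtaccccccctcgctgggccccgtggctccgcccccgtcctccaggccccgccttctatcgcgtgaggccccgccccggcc
Sema3c: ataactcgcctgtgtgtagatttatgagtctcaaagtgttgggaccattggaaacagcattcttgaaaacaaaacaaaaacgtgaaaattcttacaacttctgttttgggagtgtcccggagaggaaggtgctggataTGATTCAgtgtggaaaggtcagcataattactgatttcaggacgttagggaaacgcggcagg
Sema4g: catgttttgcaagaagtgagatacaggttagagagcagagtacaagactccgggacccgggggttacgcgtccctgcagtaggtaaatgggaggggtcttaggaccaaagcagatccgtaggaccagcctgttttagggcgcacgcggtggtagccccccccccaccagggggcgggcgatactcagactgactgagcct
The *Epha2* window held a TEAD motif, the *Sema3c* window an AP-1 motif, and the other pair of windows held none of the 3. Over the windows of 11782 tested genes, AP-1 letters were in 4.01%, TCF/LEF letters in 2% and TEAD letters in 9.5%. Among the 49 members, 1 window held the AP-1 motif (*Sema3c*), 2 held TCF/LEF (*Nrp2* and *Sema4a*) and 6 held TEAD (*Efnb2*, *Efnb3*, *Epha1*, *Epha2*, *Sema3b* and *Unc5a*). A match is a description of letters and not a binding site.

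Genes that carry the signal inside the cell were described from lists written by function, with earlier results of these data known. Their counts at an unadjusted *p* under 0.05 stand beside 10.6% of all genes higher and 13.4% lower, and their medians beside -0.021 over all genes. The genes named from each list were picked by smallest *p*, so a lack of overlap between groups goes with that choice. Over all genes, groups did not overlap in 7.41% (higher) and 7.58% (lower). Of 20 ephrin and Eph partners, 4 were higher (20%) and 0 lower, with a median log2FC of 0.14. *Abl2*, a kinase that acts on the cytoskeleton, had 53.9 ± 10.1 CPM under FS_CTR and 84 ± 9.29 CPM under FS_DSS (SD, n = 4 each, with no overlap, log2FC 0.64, adjusted *p* = 0.0791), and the adaptor gene *Crk* and the integrin linker *Tln1* had log2FC of 0.28 and 0.41 (adjusted *p* = 0.106 and 0.115). *Tln1* was 0.26 without FS_CTR libraries 3 and 4.

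Of 23 tested semaphorin, plexin and neuropilin partners, 4 were higher (17.4%, beside 10.6% of all genes) and 3 lower (13%, beside 13.4%), with a median log2FC of 0.07, and relatives within a gene family had log2FC of opposite sign. *Dpysl3*, a CRMP protein that binds microtubules downstream of semaphorins, had 189 ± 9.53 CPM under FS_CTR and 282 ± 50 CPM under FS_DSS (log2FC 0.58, adjusted *p* = 0.0791), while its relative *Dpysl2* had 15.5 ± 1.86 and 11.3 ± 1.84 CPM (log2FC -0.46, adjusted *p* = 0.130), SD with n = 4 each. *Mical2*, one of the oxidases that take actin filaments apart, was higher (log2FC 0.40, adjusted *p* = 0.0883) and *Mical1* lower (log2FC -0.91, adjusted *p* = 0.0876). None of these 4 genes had overlapping groups. *Rnd3* had a log2FC of 0.33 (adjusted *p* = 0.130), and *Cd72*, a receptor of CD100 on B cells, was under 1 CPM in either group mean (log2FC -1.41, adjusted *p* = 0.158, and -0.80 without FS_CTR libraries 3 and 4).

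Of 18 Slit and Robo partners, 6 were higher (33.3%, beside 10.6% of all genes) and 1 lower (5.56%, beside 13.4%), with a median log2FC of 0.18. The higher ones included *Srgap1* and *Srgap2*, GTPase activating proteins that bind Robo, at log2FC of 0.60 (adjusted *p* = 0.0875) and 0.45 (adjusted *p* = 0.101), and *Sos1*, a Ras and Rac exchange factor, at 0.30 (adjusted *p* = 0.106), all with no overlap. With the length trend removed *Srgap2* was at 0.28 (unadjusted *p* = 0.0571) and *Sos1* at 0.14 (unadjusted *p* = 0.0834). *Sos2* was lower (log2FC -0.75, adjusted *p* = 0.162), with 170 and 132 CPM in FS_CTR libraries 3 and 4 and 57.6 to 80.3 CPM in the other 6, and its log2FC was -0.10 without them. Of 18 tested netrin partners, 2 were higher and 2 lower (11.1% each, beside 10.6% and 13.4% of all genes), with a median of 0.02. The higher were *Flrt3*, an adhesion protein that binds Unc5 receptors (log2FC 0.33, adjusted *p* = 0.128), and *Dapk1*, a death-associated kinase downstream of Unc5 (0.60, adjusted *p* = 0.130). The lower were *Rgma*, a neogenin ligand (-1.09, adjusted *p* = 0.171), and *Flrt2* (-0.59, adjusted *p* = 0.197, and -0.37 without FS_CTR libraries 3 and 4). Both lower genes were near 1 CPM, with FS_CTR and FS_DSS means of 1.42 and 0.68 CPM for *Rgma* and 1.5 and 0.985 CPM for *Flrt2*. FS_CTR library 1 had the highest *Rgma* level, at 2.66 CPM.

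Proteases that cut Eph, ephrin or semaphorin proteins had 5 of 12 tested members higher (41.7%, beside 10.6% of all genes) and 1 lower (8.33%, beside 13.4%), with a median log2FC of 0.24. *Mmp14*, a membrane-bound metalloprotease, had 134 ± 15.8 and 206 ± 46.7 CPM (log2FC 0.62, adjusted *p* = 0.0895), and *Furin*, which processes the precursors of class 3 semaphorins, had 143 ± 32.1 and 213 ± 17 CPM (log2FC 0.57, adjusted *p* = 0.0958, and 0.32 without FS_CTR libraries 3 and 4), SD with n = 4 each. Neither overlapped between conditions. *Adam8* had a log2FC of 0.50 (adjusted *p* = 0.135). *Mmp7*, which encodes matrilysin, was lower, with 68.8, 46.8, 17.7 and 12.7 CPM under FS_CTR and 15.7, 10.2, 11.6 and 5.26 CPM under FS_DSS (log2FC -1.78, adjusted *p* = 0.109).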

How the data were processed

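RNA of 8 mouse colon organoid samples, 4 per condition, was sequenced in stranded libraries. The authors deposited estimated counts for each gene symbol, obtained with Salmon 1.10.1 on the GRCm39 transcriptome and then tximport. Their later normalization with DESeq2 1.36.0 is not in these counts, which were whole numbers. Annotation release and strand setting: not given in the sources used here. Columns of no mapped sample numbered 0.

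Conditions were compared in R 4.3.3 with edgeR 4.0.16 (quasi-likelihood F test, condition only, TMM, filterByExpr, which kept 12729 of 29234 genes, Benjamini-Hochberg adjustment over these). The standard error of a log2FC is approximate, its size over the square root of F. Positions, sequence windows and longest transcripts came from the GENCODE vM39 annotation and the GRCm39 genome, by symbol, and 92.6% of tested genes had a length. Only the edgeR fits by condition alone and with block and length offsets together were tested on simulated counts with known changes. These counts had the same dispersion for all genes and no replicate or length effect, unlike the data. Python 3.11.15, pandas 2.3.3 and matplotlib 3.10.9 made tables and plots.

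The members, gene lists and tests were chosen with earlier results of these data known, so counts and medians of lists are descriptions. Members given by library were the 15 with an unadjusted *p* under 0.05 and the member of each of 17 families with the highest CPM per kb, 23 in all, and others whose values are shown were singled out after these were seen. In each partner list up to 3 genes per direction were named by smallest *p*, and *Dcc* and *Neo1* were added as netrin receptors. Alternatives were DESeq2 size factors, library totals or TMM without mitochondrially encoded genes as scaling, no filter or at least 10 counts in every library, DESeq2 1.42.0, limma-voom (limma 3.58.1), the replicate number as a block, length offsets with and without it, each library left out, and FS_CTR libraries 3 and 4 left out together.

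Both conditions carry replicate numbers 1 to 4. Deviations from the group mean correlated between libraries of one number at 0.352, 0.221, 0.154 and 0.226, all over 0.1, so the numbers met the rule for pairs. Between libraries of unlike numbers the correlations ran from -0.284 to 0.188. FS_CTR library 3 correlated more with FS_DSS library 4 (0.188) than with FS_DSS library 3, so the numbers are not established as pairs. The main fit has no block, as in the study, and the blocked fit is given as an alternative. What the numbers stand for is not given.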

Additional observations from a re-analysis of the deposited data

Results flagged for a closer look

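*Sema7a* had 96.7 CPM in FS_CTR library 3, the lowest of its group, where the other 3 had 114.7 to 117.3 CPM. The gap was 0.873 of the group's range, past the limit for 4 samples. It was 1 of 48 groups of libraries looked at (24 genes in 2 conditions), and chance gives about 1 such case in 20 groups. Without FS_CTR libraries 3 and 4 the log2FC of *Sema7a* was 0.27, against 0.34 with them.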

How the results depend on the processing

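The distance between the median log2FC of members and of all genes lay between 0.08 and 0.18 in all 19 alternatives. The 4 members higher at an unadjusted *p* under 0.05 and the fold change threshold became 10 with library totals as the scaling and 2 to 6 with 1 library left out, the lowest without FS_DSS library 4. The 1 lower member became 0 with library totals or TMM without the mitochondrially encoded genes, 3 with no filter, 2 with DESeq2, 4 without FS_CTR libraries 3 and 4, 2 with length offsets and 0 to 2 with 1 library left out. At an unadjusted *p* alone, the 11 higher became 7 to 13 and the 4 lower 2 to 7 with 1 library left out, and the lower became 0 with library totals. At an adjusted *p*, where edgeR called 0, DESeq2 called 7 higher and 1 lower, beside 5.18% and 6.17% of all genes. The limma-voom fit called 0, beside 0%, and at an unadjusted *p* 10 higher and 4 lower, beside 10.3% and 12%. Leaving out 1 library gave 0 to 6 higher at an adjusted *p*, the 6 without FS_CTR library 1. The share of all genes called was not counted with 1 library left out, nor, at the fold change threshold, in any alternative. It was also not counted with library totals or with the block and length offsets together. Counts given without that share show nothing particular to the members. Among the 23 members chosen for values by library, with an unadjusted *p* under 0.05 in either fit, the sign turned for *Efna1* (0.05) and *Efna4* (0.00028) with library totals. It also turned for *Ephb4* (-0.36) without FS_CTR libraries 3 and 4. *Sema3e*, not among the 23, had 0.97 there, against -0.00333 with all libraries. Among named genes past no threshold in either fit, the sign also turned under some alternatives for *Ephb4*, *Neo1*, *Nrp2*, *Plxnd1* and *Slit2*. The causes were not tested.

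With the replicate block, 2 members were higher at an adjusted *p*, 0 were lower at the fold change threshold and 2 were lower at an unadjusted *p* alone (*Efna1*, at -0.31, and *Unc5cl*, at -0.99, no longer passed). With the block and length offsets these were 1 higher at an adjusted *p*, and 2 higher and 0 lower at the fold change threshold. By unadjusted *p*, the block also took out *Ntn4* (0.62) and brought in *Sema4f* and *Sema5a* (0.59), and it changed no other member's call at these thresholds.

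Levels of about 1 CPM or less, as for *Robo3*, *Robo4* and *Plxna4*, limit the precision for these genes.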

Other observations

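Since *Ephb2* and *Ephb3* are Wnt targets, a list of crypt base and Wnt target genes was described beside them. At an unadjusted *p* under 0.05, 2 of 19 tested genes were higher (10.5%, beside 10.6% of all genes) and 5 lower (26.3%, beside 13.4%), with a median log2FC of 0.06. The higher were *Cd44*, an adhesion receptor, with 397 ± 34.7 CPM under FS_CTR and 649 ± 239 CPM under FS_DSS (log2FC 0.71, adjusted *p* = 0.130), and *Myc* (log2FC 0.52, adjusted *p* = 0.149, and 0.21 without FS_CTR libraries 3 and 4). *Smoc2*, a marker of crypt base stem cells, was lower, with 50.9, 26.9, 18.2 and 17.2 CPM under FS_CTR and 4.23, 3.12, 9.78 and 2.07 CPM under FS_DSS (log2FC -2.57, adjusted *p* = 0.0784). *Tnfrsf19*, another such marker, was low in both (log2FC -1.75, adjusted *p* = 0.103). *Cdx1*, a transcription factor of the intestine, had 153 ± 26.5 and 96.9 ± 22 CPM (log2FC -0.66, adjusted *p* = 0.0988, or 0.0397 with replicate number blocked). The *Cdx1* groups overlapped, and with the length trend removed its log2FC was -0.47 (unadjusted *p* = 0.0676). The SD are over n = 4 each, and the test is that of edgeR. *Ephb2* and *Ephb3*, with log2FC of 0.11 and -0.15, had overlapping groups, while *Smoc2* and *Tnfrsf19*, picked by smallest *p*, did not.

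The ratio of *Efnb2* to the sum of *Ephb2*, *Ephb3* and *Ephb4*, in CPM per kb, was 0.588, 0.661, 0.925 and 1.23 in FS_CTR libraries 1 to 4 and 0.78, 0.861, 1.13 and 1.33 in FS_DSS libraries 1 to 4. The groups overlap, and each FS_DSS library lay above the FS_CTR library of the same number. This ratio was chosen after its genes were seen and is given with no test.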
